A study of Mus musculus with 2 samples.

Results

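The genes described here are 8 markers of B cells and lymphoid follicles, Cd79a, Cd79b, Ms4a1, Pax5, Cr2, Fcer2a, Cxcl13 and Cxcr5, taken by their symbols from the 19465 features that both count matrices list. All 8 were in the features. Spatial transcriptomics covered a KPC-shZEB1-labelled library and a KPC-shV-labelled library, 1 of each, from tumors that KPC cells formed after injection into the mouse pancreas. KPC is a pancreatic cancer cell line from genetically engineered mice with a Pdx-1-Cre driver, and the cells carried either a knockdown construct against Zeb1 or its control vector (shV). The study used C57BL/6J, BALB/c and NSG mice, 4 to 6 weeks old, and the strain behind each library is not named in the sources used here. By the study's account, this assay took the tissues of its single-cell assay, from an experiment described in immunocompetent mice. Tumors numbered 2 per group for this assay and the tissues are described as gemcitabine-treated, whereas the labels name no drug and leave unsaid which tumor a library covers. The question taken up here is whether B cell genes and follicle genes differed between both libraries, and whether they were counted in the same spots, as in a B cell follicle.

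B cells carry an antigen receptor whose signal is passed on by the Cd79a and Cd79b chains. Ms4a1 encodes the surface protein CD20, and Pax5 is the transcription factor that holds cells in the B lineage. In a lymphoid follicle, stromal cells and follicular dendritic cells secrete the chemokine Cxcl13, and B cells find it through the receptor Cxcr5. Cr2 encodes complement receptors found on mature B cells and on follicular dendritic cells, which use them to hold antigen. Fcer2a encodes CD23, a low-affinity IgE receptor of mature follicular B cells. Lymphotoxin made by lymphocytes drives stromal cells to make Cxcl13 through an alternative NF-kB pathway, and B cell aggregates outside lymphoid organs, called tertiary lymphoid structures, can form by the same steps.

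Each spot of a Visium CytAssist slide counts probes captured from a small region, as unique molecular identifiers (UMIs). A spot can hold several cells of different types, so spots are neither cells nor replicates. The KPC-shZEB1-labelled library held 140493626 UMIs in 2220 spots and the KPC-shV-labelled library held 172059528 UMIs in 3552 spots. Levels are UMIs per 1000000 UMIs (CPM) and are compared within a gene only, because genes differ in their probes. With 1 library per condition there was no replicate and no test. The 95% intervals (exact Poisson for levels, exact conditional binomial for log2 ratios, exact binomial for shares of spots) cover counting error only, not the spread between spots, sections or mice. Acinar-rich spots, with over 20% of UMIs from digestive enzyme genes, were 760 spots (34.2%) of the KPC-shZEB1-labelled library and 251 spots (7.07%) of the KPC-shV-labelled library, and the median log2 ratio over 15358 genes was -0.48. Zeb1, the targeted gene, stood at 10.8 CPM (10.3 to 11.3) and 12.4 CPM (11.9 to 13.0), or a log2 ratio of -0.20 (-0.30 to -0.11) that turned to 0.30 (0.20 to 0.40) without acinar-rich spots. In that setting Zeb1 ran counter to the labels, by which the libraries are named here. Of the barcodes, 1718 occur in both libraries, as positions on the slide do.

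The surface receptor genes Cd79a, Cd79b and Ms4a1 were higher in the KPC-shZEB1-labelled library, and Pax5 was not. Cd79a (ENSMUSG00000003379, chromosome 7 of GRCm38, 24897381 to 24902197) was counted at 7.57 CPM (7.13 to 8.04) in that library and 2.41 CPM (2.19 to 2.66) in the KPC-shV-labelled library, a log2 ratio of 1.65 (1.49 to 1.82). Cd79b (ENSMUSG00000040592, chromosome 11, 106311341 to 106314762) stood at 9.26 CPM (8.76 to 9.78) and 3.45 CPM (3.17 to 3.74), or a log2 ratio of 1.43 (1.28 to 1.57). These chains work as a pair, and their intervals overlapped. Ms4a1 (ENSMUSG00000024673, chromosome 19, 11249675 to 11266241) stood at 4.76 CPM (4.41 to 5.14) and 1.76 CPM (1.57 to 1.97), or a log2 ratio of 1.44 (1.24 to 1.64). Pax5 (ENSMUSG00000014030, chromosome 4, 44524757 to 44710487) went the other way, with 1.52 CPM (1.33 to 1.74) and 2.53 CPM (2.30 to 2.78), or a log2 ratio of -0.73 (-0.98 to -0.50). Fewer B cells and less RNA per B cell cannot be told apart in such sums.

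The follicle genes were also higher in the KPC-shZEB1-labelled library, by unequal amounts. In CPM, Cr2 was higher only with the spots richest in B cell genes included. Cr2 (ENSMUSG00000026616, chromosome 1, 195136811 to 195176716) was counted at 3.91 CPM (3.59 to 4.25) and 2.52 CPM (2.29 to 2.77), or a log2 ratio of 0.63 (0.45 to 0.82). Fcer2a (ENSMUSG00000005540, chromosome 8, 3681737 to 3694175) had only 79 UMIs in the KPC-shZEB1-labelled library and 17 in the KPC-shV-labelled library. Its log2 ratio of 2.51 (1.74 to 3.36) was the largest of the 8 genes and the one with the widest interval. The chemokine Cxcl13 (ENSMUSG00000023078, chromosome 5, 95956951 to 95961068) stood at 3.42 CPM (3.12 to 3.74) and 1.34 CPM (1.18 to 1.53), or a log2 ratio of 1.35 (1.12 to 1.58). Its receptor Cxcr5 (ENSMUSG00000047880, chromosome 9, 44511787 to 44561877) stood at 2.62 CPM (2.36 to 2.90) and 1.61 CPM (1.43 to 1.81), or a log2 ratio of 0.70 (0.47 to 0.93).

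A log2 ratio above 1 was seen for 5 of the 8 genes, beside 2.09% of the 19200 features with at least 50 UMIs. Fcer2a, 1 of the 5, reached that minimum only through the KPC-shZEB1-labelled library, with 79 UMIs there and 17 in the other. A log2 ratio below -1 was seen for 0 of the 8 genes, beside 8.21% of the features. The median log2 ratio was 1.39 over the 8 genes and -0.48 over all features tested. Without acinar-rich spots, 7 of the 8 genes were above 1, beside 3.79% of the features, and Pax5 was at -0.21 (-0.46 to 0.04). For reference, 10 genes of other organs, such as the sperm genes Prm1 and Prm2, were counted at 0.292 to 1.20 CPM. Their probes differ from those of the 8 genes, so this range sets no threshold for them.

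**Figure D1:**
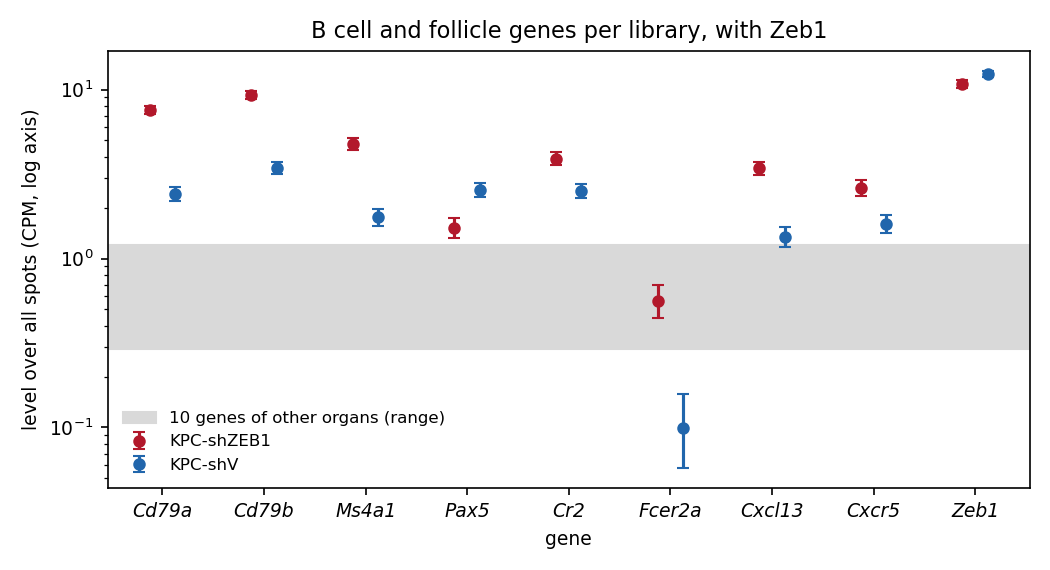
Level of the 8 B cell and follicle genes and of Zeb1 over all spots, in CPM on a log axis, with the 95% Poisson interval, for 1 library per condition. The grey band spans the levels of the 10 genes of other organs (0.292 to 1.20 CPM). Pax5 and Zeb1 are the genes drawn higher for KPC-shV.

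Few spots carried much of the difference. A spot was called B cell rich when Cd79a, Cd79b and Ms4a1 together reached 200 CPM and at least 5 UMIs, so that Pax5 and the follicle genes took no part in the call. The KPC-shZEB1-labelled library had 94 such spots (4.23% of its spots, 3.44% to 5.16%) and the KPC-shV-labelled library had 12 (0.338%, 0.175% to 0.589%). At 100 CPM the numbers were 140 and 21 spots, and at 500 CPM they were 35 and 5. The 94 spots held 2.14% of the UMIs of their library and 50.8% of its UMIs of Cd79a, Cd79b and Ms4a1, whereas the 12 spots held 0.140% and 10.3%, respectively. They were shallow, with medians of 28536 and 15736.5 UMIs against 61008.5 and 52656 UMIs in the other spots. With spots thinned to 20000 UMIs, and shallower spots left out, the shares were 3.07% (2.38% to 3.89%) and 0.106% (0.0219% to 0.310%), and with at least 10 UMIs in place of 200 CPM they were 3.56% (2.83% to 4.42%) and 0.141% (0.0457% to 0.328%). Only 3 of the 94 spots and 0 of the 12 were acinar-rich.

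The B cell rich spots were then left out, which lowers the counts of Cd79a, Cd79b and Ms4a1 by construction. Without these spots the log2 ratio was 0.67 (0.46 to 0.87) for Cd79a, 0.71 (0.55 to 0.87) for Cd79b and 0.57 (0.32 to 0.81) for Ms4a1. For Cr2 it was -0.09 (-0.31 to 0.13), so that no difference in CPM could be seen at this depth. In CPM, the median log2 ratio over 15358 genes was -0.48 with all spots included, and other scalings were not applied without these spots. Cxcl13 kept a log2 ratio of 0.56 (0.30 to 0.83), and that of Cxcr5 was 0.22 (-0.04 to 0.48). The ratio of Pax5 was further below 0 there, at -1.32 (-1.61 to -1.04).

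In the KPC-shV-labelled library the Pax5 level in spots without other B cell counts was close to that over all spots (2.53 CPM). The same held for Cr2 (2.11 and 2.52 CPM), Cxcl13 (1.26 and 1.34 CPM) and Cxcr5 (1.46 and 1.61 CPM). In spots without a UMI of Cd79a, Cd79b or Ms4a1, the Pax5 level was 0.760 CPM (0.595 to 0.957) in 1415 spots of the KPC-shZEB1-labelled library and 2.45 CPM (2.18 to 2.74) in 2664 spots of the KPC-shV-labelled library. Between the libraries, the log2 ratio there was -1.69 (-2.08 to -1.31) for Pax5 and -0.85 (-1.18 to -0.52) for Cr2. It was -0.75 (-1.18 to -0.34) for Cxcl13 and -0.43 (-0.79 to -0.07) for Cxcr5. Over all spots, the median log2 ratio of 15358 genes was -0.48, near the value of Cxcr5. When these 2664 spots were split at the median level of the epithelial genes Krt7, Krt8, Krt19 and Epcam, Pax5 stood at 2.68 CPM (2.32 to 3.07) above the median and 2.09 CPM (1.70 to 2.53) at or under it. In the KPC-shZEB1-labelled library the corresponding levels were 1.12 CPM (0.833 to 1.47) and 0.427 CPM (0.265 to 0.653). Cr2 and Cxcr5 also separated in that library, at 1.75 and 0.631 CPM and at 1.67 and 0.549 CPM, respectively. Cxcl13 did not, at 0.790 and 0.712 CPM. In the KPC-shV-labelled library these genes were lower above the median. Cxcl13 stood at 0.709 and 2.13 CPM there, and the intervals overlapped for Cr2 and Cxcr5. In acinar-rich spots of the KPC-shZEB1-labelled library, Pax5, Cr2 and Cxcr5 stood at 0.436, 0.981 and 0.563 CPM. The parts of epithelial cells and of acinar-rich spots in these counts were not tested. Only 12 of the 436 Pax5 UMIs of the KPC-shV-labelled library (2.75%) lay in its B cell rich spots, against 78 of 214 (36.4%) in the KPC-shZEB1-labelled library.

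Cxcl13 was also counted in acinar-rich spots of the KPC-shV-labelled library. Its level in them was 5.54 CPM (3.88 to 7.66) and 0.763 CPM (0.550 to 1.03) in the KPC-shZEB1-labelled library. Of the 251 acinar-rich spots labelled KPC-shV, 12.7% (8.89% to 17.5%) held a Cxcl13 UMI, at a median depth of 24224 UMIs. Of the 3289 spots that were neither acinar-rich nor B cell rich, 5.29% (4.55% to 6.11%) did, at 54953 UMIs. With spots thinned to 20000 UMIs the shares were 8.55% (4.63% to 14.2%) and 2.29% (1.75% to 2.93%). These acinar-rich spots held 36 Cxcl13 UMIs in all, more than the 7 in the 12 B cell rich spots of the same library. The level went the other way, with 29.0 CPM (11.6 to 59.7) in the B cell rich spots.

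The sequence before the start of Cxcl13 is shown because its lymphotoxin signal is read there in textbook accounts. It is the 250 bases upstream of the RefSeq start, on the plus strand of GRCm38.p6 (chr5:95956689-95956938). The capitals mark GGGAGATTT, letters of the variant kB site at which RelB and p52, the factors of the alternative NF-kB pathway, are known to bind.

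Cxcl13: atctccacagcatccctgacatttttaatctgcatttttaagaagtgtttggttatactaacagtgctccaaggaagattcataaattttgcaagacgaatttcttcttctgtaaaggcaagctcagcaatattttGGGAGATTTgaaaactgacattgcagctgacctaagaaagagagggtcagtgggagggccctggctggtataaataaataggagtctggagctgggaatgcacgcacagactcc

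The letters begin 114 bases before the start. On either strand they occur in 0.283% of 32851 promoter windows of this length and in 1 of the 5 genes of the 8 that have a window in the table, Cxcl13 itself. The letters were chosen to be shown in the Cxcl13 window, so this match was fixed beforehand. Its rarity among the windows is therefore no support for the site. The octamer ATGCAAAT (1.60% of windows) and the PU.1 letters GAGGAAGT (2.44%) occur in 0 of these 5 windows. A match describes letters and not a bound site.

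In the B cell rich spots of the KPC-shZEB1-labelled library, the follicle genes were counted together with the B cell genes. Cr2 was at 85.6 CPM (75.5 to 96.8) in these 94 spots and 2.12 CPM (1.89 to 2.38) in the other spots, a log2 ratio of 5.33 (5.09 to 5.58). Cxcl13 was at 71.7 CPM (62.4 to 81.9) against 1.93 CPM (1.70 to 2.17), or a log2 ratio of 5.22 (4.95 to 5.48). At 500 CPM the log2 ratios parted, at 6.62 (6.36 to 6.88) for Cr2 and 5.17 (4.81 to 5.51) for Cxcl13, and at 10 UMIs they were 5.08 (4.83 to 5.33) and 4.40 (4.12 to 4.68). The chemokine receptor Cxcr5 was at 41.3 CPM (34.4 to 49.3) against 1.77 CPM (1.56 to 2.01), or a log2 ratio of 4.54 (4.22 to 4.86). Fcer2a was at 17.7 CPM (13.2 to 23.1) against 0.189 CPM (0.124 to 0.277), or a log2 ratio of 6.55 (5.84 to 7.28). Pax5 was at 26.0 CPM (20.5 to 32.4) against 0.989 CPM (0.830 to 1.17), or a log2 ratio of 4.72 (4.30 to 5.13). All 5 genes that took no part in the call were past a log2 ratio of 2, beside 7.01% of the 18582 features with at least 50 UMIs, and their median was 5.22 beside 0.50 over these features. Fcer2a reached that minimum only through the B cell rich spots, with 53 UMIs in them and 26 in the other spots, so its place in this count carries no weight. Of the genes of other organs, 8 had at least 50 UMIs, 0 were past 2 and the median was 1.09.

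In the KPC-shV-labelled library the 12 B cell rich spots gave few counts. Cr2 had 45 UMIs there, 186.3 CPM (135.9 to 249.2) against 2.26 CPM (2.04 to 2.49) in the other spots. Cxcl13 had 7 UMIs, 29.0 CPM (11.6 to 59.7) against 1.30 CPM (1.14 to 1.49). Cxcr5 had 15 UMIs, 62.1 CPM (34.7 to 102.4) against 1.52 CPM (1.35 to 1.72), and Pax5 had 12 UMIs, 49.7 CPM (25.7 to 86.8) against 2.47 CPM (2.24 to 2.71). The intervals of these 4 genes in B cell rich spots did not overlap those in the other spots. For Cxcl13 this rested on 2 of 3 spots described below, the third of which held 0 of its UMIs. Without the 3 spots the log2 ratio of Cxcl13 was 1.95 (-3.36 to 4.45). Fcer2a had 1 UMI, and its level of 4.14 CPM (0.105 to 23.1) overlapped the 0.0931 CPM (0.0532 to 0.151) of the other spots.

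**Figure D2:**
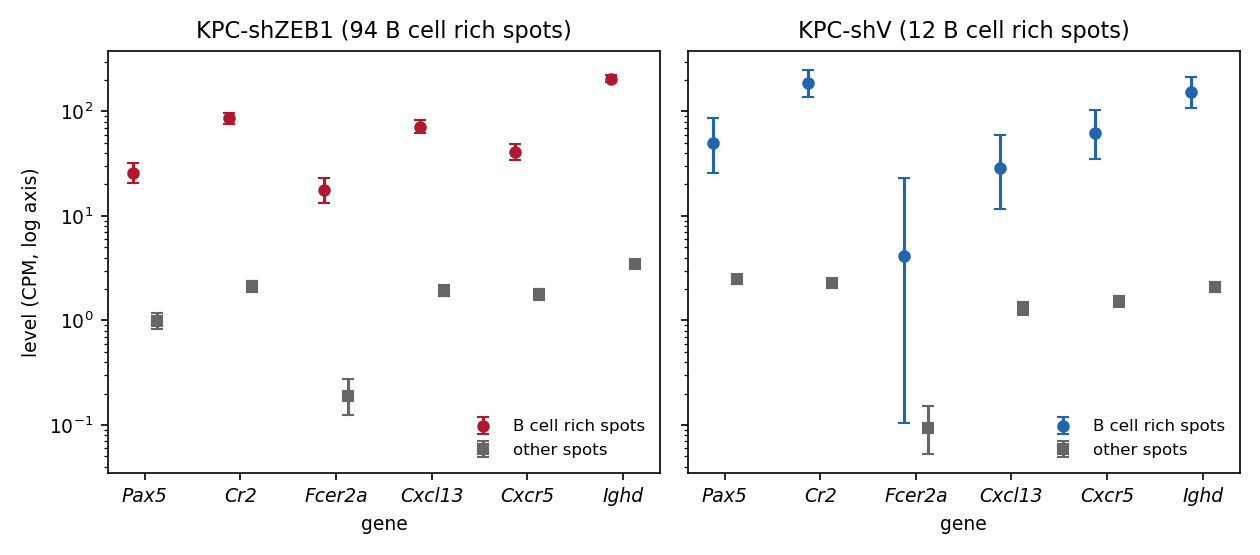
Level of the 5 genes that took no part in calling spots B cell rich, and of Ighd (IgD heavy chain), in B cell rich spots and in the other spots of each library, in CPM on a log axis with 95% Poisson intervals. In KPC-shZEB1 all 6 genes are higher in the 94 B cell rich spots, and in KPC-shV the interval of Fcer2a in the 12 spots, which held 1 UMI, overlaps that of the other spots.

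Spot by spot, the counts were small and uneven. Over the 94 spots labelled KPC-shZEB1, Cr2 ranged from 0 to 20 UMIs with a median of 1, and Cxcl13 from 0 to 14 with a median of 1. Cxcr5 ranged from 0 to 6 UMIs, and Pax5 and Fcer2a from 0 to 4. The spot with the most B cell counts for its depth held 34 UMIs of Cd79a, Cd79b and Ms4a1 in 5500 UMIs, 6182 CPM, with 8 UMIs of Cr2, 3 of Cxcr5, 2 of Pax5 and 1 of Fcer2a, but 0 of Cxcl13. The highest Cr2 level lay in the spot ranked 3 by these B cell counts (20 UMIs, 1853 CPM), whereas the highest Cxcl13 level (506 CPM) lay in the spot ranked 42. The spot ranked 7 came next for Cxcl13, at 12 UMIs, so high chemokine levels were found in spots of unlike rank.

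In the KPC-shV-labelled library, few of the 12 B cell rich spots carried most of their Cr2 and Cxcl13 counts. The spot with the highest B cell level held 37 UMIs of Cd79a, Cd79b and Ms4a1 in 16386 UMIs (2258 CPM), with 15 UMIs of Cr2, 4 of Pax5, 3 of Cxcl13, 2 of Cxcr5 and 1 of Fcer2a. The next spot held 22 such UMIs (1551 CPM), with 16 UMIs of Cr2, 5 of Pax5, 3 of Cxcl13 and 3 of Cxcr5. The spot ranked 3 held 3 UMIs of Cr2, 1 of Cxcr5, 0 of Pax5 and 0 of Cxcl13. The spots ranked 1 to 3 held 34 of the 45 Cr2 UMIs (75.6%), 9 of the 12 Pax5 UMIs (75%) and 6 of the 7 Cxcl13 UMIs (85.7%) of the 12 spots, but 6 of the 15 Cxcr5 UMIs (40%). In the KPC-shZEB1-labelled library the first 3 spots held 12.8% of the Cr2 UMIs and 2.79% of the Cxcl13 UMIs of the 94 spots.

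These 3 spots labelled KPC-shV also stood apart in other genes, which were singled out after their values were seen. They held 19, 10 and 17 UMIs of Coch, a secreted protein known from follicular dendritic cells, out of 70 in the whole library, whereas the KPC-shZEB1-labelled library held 7 in all and 0 in its B cell rich spots. The first 2 of them held 22 and 30 UMIs of the macrophage scavenger receptor Marco and 110 and 72 UMIs of Mfge8, which follicular dendritic cells also make, and the third held 585 UMIs of the hemoglobin gene Hbb-bs. Marco, Mfge8 and Madcam1, an adhesion molecule of vessels and lymphoid stroma, were at 3, 9 and 0 UMIs in the third spot. Their part in the follicle counts was not tested. Without the 3 spots, the remaining 9 held 11 UMIs of Cr2, 9 of Cxcr5, 3 of Pax5, 1 of Cxcl13 and 0 of Fcer2a.

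Several follicle genes were often counted in the same B cell rich spot. Of the 94 spots labelled KPC-shZEB1, 15 held all 4 of Cr2, Fcer2a, Cxcl13 and Cxcr5, 26 held 3, 34 held 2, 15 held 1 and 4 held none. Of the 12 spots labelled KPC-shV, 1 held all 4, 2 held 3, 6 held 2, 2 held 1 and 1 held none. Cr2 and Cxcl13 were counted together in 45 of 94 spots (47.9%, 37.5% to 58.4%) and 3 of 12 spots (25%, 5.49% to 57.2%). The intervals overlap, and they cover counting error only. With 1 library per condition, a difference between the conditions could not be tested at any number of spots. Detection depends on depth, so spots were also thinned to 20000 UMIs each, drawn at random, and 23 and 7 shallower B cell rich spots dropped out. In each library these included the spots ranked 1 to 6 by B cell level. The KPC-shV-labelled spots ranked 1 and 2, which held both Cr2 and Cxcl13, were thus left out at this depth. Cr2 and Cxcl13 were then counted together in 20 of 71 spots (28.2%, 18.1% to 40.1%) labelled KPC-shZEB1 and in 0 of 5 labelled KPC-shV, which allows a share of up to 60% (3 of 5 spots). Another random draw gave 22 of 71 (31.0%) and 1 of 5 (20%). At 5000 UMIs, which kept all B cell rich spots, the numbers were 17 of 94 (18.1%, 10.9% to 27.4%) and 3 of 12 (25%, 5.49% to 57.2%), so that the order of the libraries was not fixed.

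At the same depth of 20000 UMIs, the pair was seen in 0 of 743 acinar-rich spots labelled KPC-shZEB1, which allows up to 0.404% (3 of 743), and in 8 of 1339 spots (0.597%, 0.258% to 1.17%) that were neither acinar-rich nor B cell rich. Singly, Cr2 was counted in 34 of the 71 B cell rich spots (47.9%, 35.9% to 60.1%), Cxcl13 in 39 (54.9%, 42.7% to 66.8%), Cxcr5 in 31 (43.7%, 31.9% to 56.0%), Pax5 in 21 (29.6%, 19.3% to 41.6%) and Fcer2a in 17 (23.9%, 14.6% to 35.5%). Without thinning, the shares of the 94 spots were 68.1%, 68.1%, 63.8%, 55.3% and 35.1%, in the same order. In thinned spots that were neither acinar-rich nor B cell rich, they were 6.12%, 4.78%, 6.27%, 2.91% and 0.373%. In thinned acinar-rich spots, where normal pancreas tissue prevails, they were 2.56%, 1.21%, 0.942%, 1.35% and 0.404%, respectively. Median depths before thinning were 28536 UMIs in the B cell rich and 66371 UMIs in the acinar-rich spots. Of the 5 thinned B cell rich spots of the KPC-shV-labelled library, 3 held Cr2, 2 held Cxcr5, 1 held Cxcl13, 1 held Pax5 and 0 held Fcer2a. The spot positions were not used here, so whether neighboring spots form round follicles with a separate T cell zone was not analyzed.

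Along the B cell level of the spots, the follicle genes and the genes of neighboring cell types took different courses in the KPC-shZEB1-labelled library. Cr2 stood at 11.3 CPM (9.05 to 14.0) in 166 spots with 50 to 200 CPM of Cd79a, Cd79b and Ms4a1, at 26.6 CPM (20.2 to 34.3) in 62 spots with 200 to 500 CPM, and at 558.8 CPM (466.2 to 664.4) in the 17 spots with 1000 CPM and more. Per 100 UMIs of these 3 genes, Cr2 went from 8.39 UMIs in the spots with 200 to 500 CPM to 17.6 in the 21 spots with 500 to 1000 CPM and 28.7 in the highest class. The level of Cxcl13 climbed as well, from 12.1 CPM (9.75 to 14.8) in the spots with 50 to 200 CPM to 61.8 CPM (51.8 to 73.0), 78.2 CPM (57.2 to 104.3) and 165.9 CPM (117.4 to 227.7) in the next classes. It climbed less than the B cell genes in the upper classes, with 19.5, 11.3 and 8.52 UMIs per 100 of theirs. These ratios divide by the sum that sets the classes. Pax5 kept step with the B cell genes, at 4.98, 4.66 and 5.61. The highest class was shallow, with a median of 10796 UMIs, rests on under 20 spots and includes 2 spots with fewer than 5 UMIs of the 3 genes.

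In the KPC-shZEB1-labelled library, T cell genes and Glycam1 climbed little with the B cell level once it had reached 50 CPM. Cd3d, Cd3e and Cd3g, chains of the T cell receptor complex, stood at 133.3 CPM (125.3 to 141.8) in the spots with 50 to 200 CPM and at 174.6 CPM (124.7 to 237.8) in the spots with 1000 CPM and more. Glycam1, a ligand for lymphocytes made by high endothelial venules, was at 37.6 CPM (33.4 to 42.2) and 39.3 CPM (18.0 to 74.6), respectively, and at 1.11 CPM (0.907 to 1.34) in spots without B cell counts. In the KPC-shV-labelled library the Cd3 genes climbed further, from 40.9 CPM (35.0 to 47.6) in 175 spots with 50 to 200 CPM to 112.5 CPM (77.5 to 158.0) in 24 spots with 200 to 500 CPM, of which 17 held under 5 UMIs of the B cell genes, and the classes above held 5 and 4 Cd3 UMIs. Jchain and Mzb1, genes of antibody-secreting cells, reached 2237 CPM (2175 to 2300) in the KPC-shZEB1-labelled spots with 200 to 500 CPM and were at 2056 CPM (1875 to 2250) in the highest class. There, the spots with the highest B cell level had the highest Cr2 level, and a Jchain and Mzb1 level near that of the spots with 200 to 500 CPM. Of 8 listed plasma cell genes, 4 had a log2 ratio above 2 between B cell rich and other KPC-shZEB1-labelled spots, beside 7.01% of the features. A ratio below 0 was seen for 1 of the 8. Their sum had a log2 ratio of 1.45 (1.42 to 1.48) in that library and -0.92 (-1.13 to -0.71) in the KPC-shV-labelled library. In the latter, 99.0% of the other spots held a UMI of the 8 genes. Jchain and Mzb1 went the other way there than the sum. They stood at 5.65 CPM (5.24 to 6.08) in spots without B cell counts and 259.2 CPM (204.2 to 324.4) in those with 200 to 500 CPM.

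**Figure D3:**
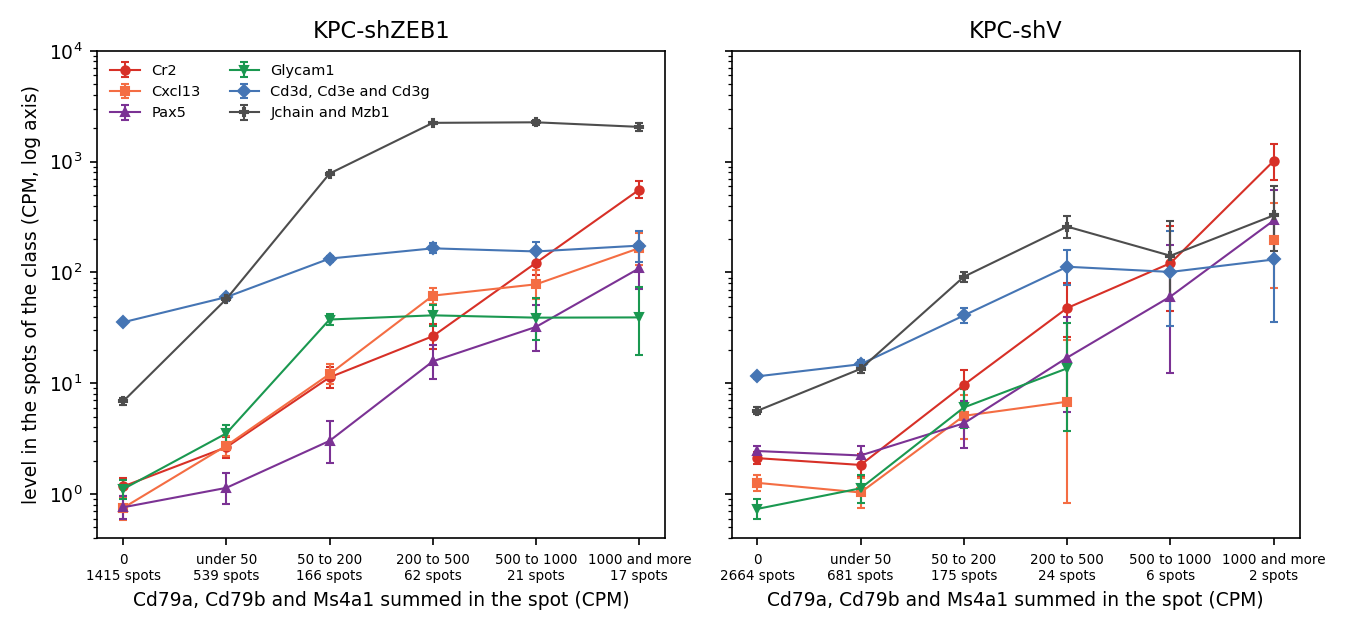
Level of Cr2, Cxcl13, Pax5, Glycam1, the 3 Cd3 genes and Jchain with Mzb1 in spots classed by the summed level of Cd79a, Cd79b and Ms4a1, in CPM on a log axis with 95% Poisson intervals. Numbers of spots stand under each class, and classes with 0 UMIs of a gene are not drawn. In KPC-shZEB1 Cr2 climbs to 558.8 CPM in the highest class, while Glycam1 stays between 37.6 and 41.0 CPM and the Cd3 genes between 133.3 and 174.6 CPM from 50 CPM on.

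The 94 spots were also split at the median of their Jchain and Mzb1 level (1429 CPM). Cr2 stood at 137.0 CPM (116.8 to 159.6) in the 47 spots at or under that median and 51.6 CPM (41.6 to 63.2) in the 47 above it. Cxcl13 stood at 100.2 CPM (83.1 to 119.8) and 52.7 CPM (42.6 to 64.4), and Cxcr5 at 55.1 CPM (42.6 to 70.1) and 32.2 CPM (24.4 to 41.6). Fcer2a did not separate, with 20.9 CPM (13.5 to 30.8) and 15.5 CPM (10.3 to 22.4). Per 100 UMIs of Cd79a, Cd79b and Ms4a1, Cr2 was at 22.7 and 11.3 UMIs and Cxcl13 at 16.6 and 11.6. Depth moved with this split, at medians of 24133 and 34731 UMIs, and its part was not tested.

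The other genes of a B cell aggregate were read from lists. Of 14 other B cell genes, all 14 had a log2 ratio above 2 between the B cell rich and the other spots labelled KPC-shZEB1, beside the 7.01% of features. Among them Cd37, a tetraspanin, stood at 185.6 CPM (170.5 to 201.7) and Bank1, an adaptor of B cell receptor signaling, at 128.0 CPM (115.5 to 141.4). Of 5 genes of naive B cells, 4 were past this ratio. Ighd, the IgD heavy chain that naive B cells display, was at 205.3 CPM (189.4 to 222.2) in these spots and in 89 of the 94. In the 12 spots labelled KPC-shV Ighd was at 153.1 CPM (107.8 to 211.1), an interval that overlaps.

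Germinal center genes were sparse beside the naive ones. Of 10 listed genes, 9 had at least 50 UMIs. Of these, 2 were past a log2 ratio of 2 in the KPC-shZEB1-labelled library, beside 7.01% of the features. Mef2b, a transcription factor of germinal center B cells, was one of the 2, with 36 UMIs in 27 of the 94 spots and a log2 ratio of 3.29 (2.73 to 3.81). Gcsam, a germinal center signaling protein singled out after its value was seen, was the other, with 25 UMIs and a log2 ratio of 2.71 (2.04 to 3.32). In the classes from 200, 500 and 1000 CPM of the B cell genes, Mef2b stood at 13.1, 8.50 and 8.73 CPM. Gcsam stood at 8.11, 10.2 and 4.37 CPM there. The highest class held 2 UMIs of Mef2b and 1 of Gcsam, so neither was seen to climb as Cr2 did. Bcl6, the master regulator of germinal centers, differed little, at a log2 ratio of 0.41 (0.19 to 0.61), and it was also counted in 77.7% of the other spots. Mef2b had 0 UMIs in the 12 spots labelled KPC-shV, where 3 UMIs would be 12.4 CPM. The 5 proliferation genes all had a log2 ratio below 0 in the 94 spots, and Mki67, a marker of cycling cells, was at -0.27 (-0.39 to -0.15). The other spots were richer in epithelial genes, and the part of tumor cells in these ratios was not tested. By class, Mki67 stood at 173.1 CPM from 200 CPM of the B cell genes and 270.7 CPM (207.5 to 347.0) from 1000 CPM. Spots without B cell counts had 196.0 CPM of Mki67, and those under 50 CPM had 272.9 CPM.

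Markers of follicular stroma and helper T cells were mixed. Of the 11 genes listed for follicular dendritic cells and B zone stroma, 10 had at least 50 UMIs, 3 were past a log2 ratio of 2 and 3 were below 0 in the KPC-shZEB1-labelled library. Over all features tested there, 7.01% were past 2 and the median was 0.50. Clu, a secreted chaperone that tumor epithelium also makes, was lower in B cell rich spots at 806.5 CPM against 2100 CPM. Complement C4b was higher, with 474.6 CPM and 125.3 CPM and a log2 ratio of 1.92 (1.84 to 2.00), the Fc receptor Fcgr2b had a log2 ratio of 1.59 (1.51 to 1.67) and the adhesion molecule Vcam1 one of 1.20 (1.11 to 1.30). Mfge8, singled out above, was at -0.06 (-0.18 to 0.05) over the 94 spots. In the classes from 200, 500 and 1000 CPM of the B cell genes, however, Mfge8 stood at 173.1, 282.1 and 532.6 CPM (442.3 to 635.9). In spots without B cell counts it was at 210.4 CPM. The highest class rests on 17 spots and held 122 UMIs of Mfge8. The spots ranked 11 and 13 held 32 and 36 of them, beside 15 and 20 UMIs of Cr2. Of 7 genes of follicular helper T cells, 5 were past a log2 ratio of 2, among them Cd4 at 2.58 (2.29 to 2.87), the signaling adaptor Sh2d1a at 2.60 (2.13 to 3.04) and the costimulatory receptor Icos at 2.53 (1.96 to 3.07). The helper cytokine Il21, named after its value was seen, had 3 UMIs in the 94 spots. The T zone chemokines Ccl19 and Ccl21a are not in the feature list used.

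Of the 8 genes of the lymphotoxin and NF-kB2 pathway, 2 were past a log2 ratio of 2 in the 94 spots. Here too, 7.01% of the features were past 2 and their median was 0.50. Ltb, the membrane partner of lymphotoxin, stood at 152.0 CPM and 24.5 CPM, giving a log2 ratio of 2.63 (2.49 to 2.77), and the other was Lta with 22 UMIs, named to complete the count. Nfkb2, which encodes the precursor of p52, had a log2 ratio of 1.44 (1.28 to 1.60), and the lymphotoxin receptor Ltbr one of 0.61 (0.40 to 0.81). Over all spots, the 8 genes summed had a log2 ratio of -0.26 (-0.27 to -0.24) between the libraries, and 1 of the 8 was above 1. Of the 6 genes of high endothelial venules, 3 were past a log2 ratio of 2, with Glycam1 at 3.45 (3.16 to 3.74), Madcam1 at 3.09 (2.85 to 3.32) and the endothelial sialomucin Cd34 at 2.29 (2.11 to 2.46). A log2 ratio below 0 was seen for 1 of the 6, and the 6 genes summed stood at 0.86 (0.75 to 0.97).

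Other cell types were counted in the same spots. Macrophage genes (Adgre1, C1qa, C1qb, C1qc and Csf1r) were above the other spots in both libraries, with 0 of 5 past a log2 ratio of 2 in the KPC-shZEB1-labelled library and C1qa at 1.52 (1.47 to 1.56). All 3 genes listed for lymph node macrophages (Marco, Cd5l and Siglec1) and all 3 for plasmacytoid dendritic cells (Ly6d, Siglech and Ccr9) were past it there, as were 2 of 4 lymphatic vessel genes, among them Pdpn at 2.42 (2.29 to 2.55). These counts also stand beside 7.01% of the features past 2 and a median of 0.50. The epithelial genes were lower, with a median log2 ratio of -3.53 over the 4 genes used. Of the 94 spots, 22 were also among the 5% of spots with the highest level of Cd3d, Cd3e and Cd3g. In the KPC-shV-labelled library, 7 of the 12 were. Whether a piece of a lymph node or spleen lies in either section was not tested.

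Per B cell count, the libraries differed in Cxcl13 and Cr2 in opposite directions. Per 100 UMIs of Cd79a, Cd79b and Ms4a1 in B cell rich spots, Cxcl13 had 13.9 UMIs in the KPC-shZEB1-labelled library and 5.19 in the KPC-shV-labelled library, a log2 ratio of 1.43 (0.32 to 2.79). Without the 3 spots with Coch, the latter was 1.49 UMIs and the log2 ratio 3.22 (0.68 to 8.56), resting on 1 UMI. With spots called at 10 UMIs in place of 200 CPM, the log2 ratio was 0.44 (-0.69 to 1.82), an interval that includes 0. Cr2 had 16.7 and 33.3 UMIs, a log2 ratio between -1.54 and -0.44. Without the 3 spots it had 16.7 and 16.4 UMIs, a log2 ratio of 0.02 (-0.93 to 1.11). Fcgr2b took another course, at -0.82 (-1.16 to -0.48) with the 3 spots and -1.79 (-2.23 to -1.37) without them.

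For the other members the interval of the ratio per B cell count included 0 when spots were called at 200 CPM. The log2 ratio was -0.81 (-1.74 to 0.24) for Pax5, but -1.27 (-2.30 to -0.10) with spots called at 10 UMIs, which left 5 spots labelled KPC-shV. Without the 3 spots with Coch, the Pax5 ratio at 200 CPM was 0.18 (-1.49 to 2.52), resting on 3 UMIs labelled KPC-shV. For Cxcr5 the ratio was -0.47 (-1.29 to 0.46). Fcer2a had 53 UMIs in the KPC-shZEB1-labelled library and 1 in the other, a log2 ratio of 2.21 (-0.35 to 7.55). Ighd had a log2 ratio of 0.54 (-0.01 to 1.13). The plasma cell gene Jchain differed more, with 375 and 50.4 UMIs per 100, a log2 ratio of 2.90 (2.46 to 3.35) that was 1.88 (1.37 to 2.40) without the 3 spots. Over all spots, the 8 listed plasma cell genes summed had a log2 ratio of -0.45 (-0.46 to -0.44) between the libraries. The sum and the single genes differed, as the median over the 8 was 0.67, with 3 above 1 and 0 below -1. A UMI of the 8 genes was held by 99.9% and 99.0% of the spots. In spots with 50 to 200 CPM of the B cell genes, Jchain and Mzb1 were also summed. Their sum stood at 779.8 CPM in the KPC-shZEB1-labelled library and 91.5 CPM in the KPC-shV-labelled library.

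**Figure D4:**
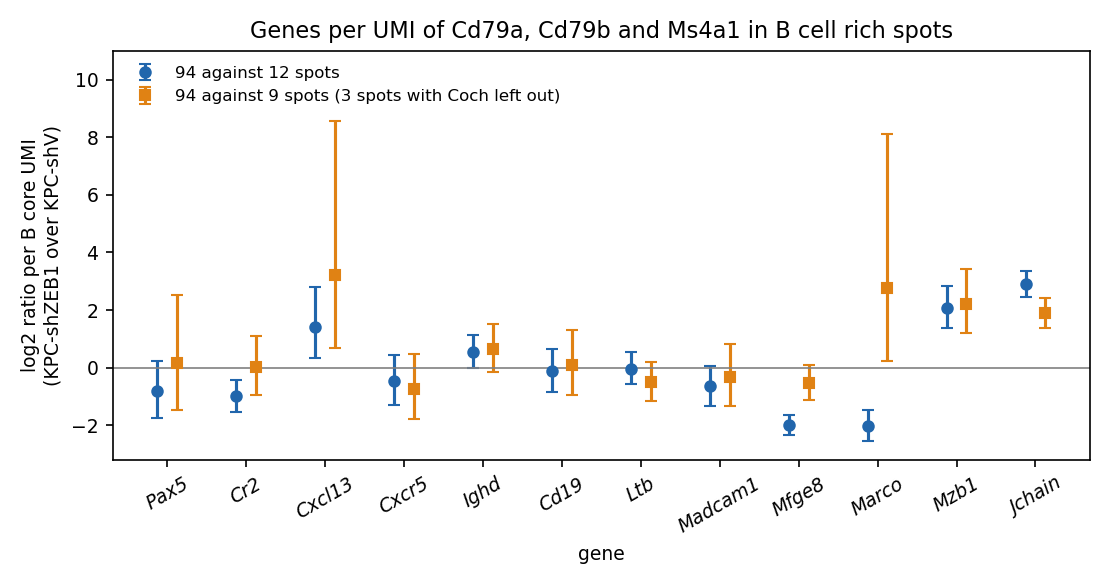
Log2 ratio (KPC-shZEB1 over KPC-shV) of UMIs per UMI of Cd79a, Cd79b and Ms4a1 in B cell rich spots, with exact conditional 95% intervals, over 94 and 12 spots (circles) and with the 3 KPC-shV spots that held at least 5 UMIs of Coch left out (squares). Cr2, Mfge8 and Marco are below 0 with these spots, and without them their intervals include 0 or lie above it.

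Across spots, the genes most like the summed level of Cd79a, Cd79b and Ms4a1 were ranked among 15358 genes by the lower of the Pearson correlations of both libraries, on log2(CPM + 10). The correlations describe spots of 1 section that share its depth and makeup. Leaving out the members, Ighm led with 0.75 in the KPC-shZEB1-labelled library and 0.33 in the KPC-shV-labelled library. Igkc and Ighj1 were the other immunoglobulin genes of the leading 10, and Sfrp1, Abi3bp, Cyp1b1, Prelp, Ccn5, Clec4a1 and Lgi2 made up the rest, with lower correlations of 0.28 to 0.33. Of the members that took no part in the sum, Cr2 reached 0.57 and 0.20, Cxcl13 0.55 and 0.081, Cxcr5 0.50 and 0.14, and Pax5 0.45 and 0.12, respectively. Among the 15358 genes these put Cr2 at rank 31 and Cxcl13 at rank 37 in the KPC-shZEB1-labelled library, and at ranks 263 and 1740 in the KPC-shV-labelled library. Fcer2a was under the minimum of 100 UMIs in each library and was not ranked.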

How the data were processed

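Spatial transcriptomics was measured in 1 tumor library for each of KPC-shZEB1 and KPC-shV. Reads of Visium CytAssist probe libraries had been mapped by the authors to mm10 in Space Ranger 2.0.1 (submitters' processing notes), and the deposited files hold UMI counts for every gene in each spot over tissue, not normalized. The members and gene lists were chosen with earlier results of these data known. Counts were summed over spots and divided by total UMIs, and 95% intervals were exact and for counting error only, in Python 3.11.15, numpy 2.4.6, scipy 1.17.1, pandas 2.3.3 and matplotlib 3.10.9. No test was possible with 1 library per condition. The 8 genes, up to 4 genes per list with the most UMIs in B cell rich spots and 10 genes by likeness are named, beside those said to be singled out. Of the lists, Ccl19, Ccl21a, Krt18, Cpb1, Pnliprp1, Amy2b and Try5 are not in the feature list used. Positions came from GENCODE M21 and promoters from RefSeq (GRCm38.p6). The library ratio and the ratio of B cell rich over other spots were tested on simulated data with known changes. The simulated B cell rich spots were placed in spots with at least 20000 UMIs. Shallower B cell rich spots and the other steps were not tested in this way. Spots were not screened for doublets, since a spot is a region. Some listed genes are not reported here.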

Additional observations from a re-analysis of the deposited data

How the results depend on the processing

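The log2 ratio of the 8 genes summed (1.10) was 1.69 without acinar-rich spots, 1.58 with median-of-ratios scaling, 1.43 as the mean CPM over spots, 0.45 without the 5% of spots with the highest B cell level and 0.30 without B cell rich spots, the last chosen after seeing the data. Only Cr2 turned, to -0.0085 and -0.0886 in the latter pair of settings, both in CPM, with intervals that include 0. Of 48 values of single genes under these settings and without spots under 5000 UMIs, 40 were above 0, and the 8 below 0 were those of Pax5 and these of Cr2. The share of B cell rich spots was 6.31% and 0.591% at 100 CPM, 1.58% and 0.141% at 500 CPM, 6.23% without acinar-rich spots in the KPC-shZEB1-labelled library, 3.07% and 0.106% after thinning to 20000 UMIs, and 0.141% in the KPC-shV-labelled library at 10 UMIs. The log2 ratio of the 4 follicle genes between B cell rich and other spots of the KPC-shZEB1-labelled library (5.17) was 4.70 at 100 CPM, 5.92 at 500 CPM, 4.98 over the top 5% of spots, 4.74 without acinar-rich spots, 4.74 without the 10 spots with the most UMIs of the gene and 4.72 at 10 UMIs. For the KPC-shV-labelled library (5.76) it was 4.70, 7.13, 3.12, 2.39 (-2.92 to 4.87) without those 10 spots, which leaves 2 spots, and 6.21 at 10 UMIs, and 4.36 without the 3 spots with Coch. The share of B cell rich spots with Cr2 and Cxcl13 labelled KPC-shZEB1 (28.2% at 20000 UMIs) was 18.1% at 5000 UMIs, 47.9% without thinning and 9.86% with at least 2 UMIs of each, and for the KPC-shV-labelled library (0%) it was 25% at 5000 UMIs and without thinning, 20% with another draw and 0% with at least 2 UMIs of each. The cause of these shifts was not tested. No replicate could be left out, and no paired analysis was possible because each condition has 1 library.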
